A study of Mus musculus with 26 samples.

Results

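The 35 genes described here are genes of macrophages and other myeloid cells, followed in cultures of osteoblasts, the bone-forming cells, from mouse femurs. The genes were chosen by symbol from a list of macrophage, monocyte and leukocyte genes. All 35 are among the 26264 gene symbols of the count table, and all 35 had enough counts to be tested. RNA was sequenced in 18 libraries, 3 in each of 6 groups of cultured C57BL/6J cells. YOUNG and OLD came from mice of 3 and 18 months and carried no transgene that the labels name. CON-YOUNG came from Ocncre Ai14 mice, the control line, which holds a Cre driven by the osteocalcin promoter of mature osteoblasts and a Cre reporter. CKO-YOUNG and CKO-OLD came from Kdm2bfl/fl Ocncre Ai14 mice and lacked the CxxC domain of Kdm2b, by which this Polycomb subunit binds DNA, in cells in which that Cre had been active. The labels say that the knockout cells were also screened, not by what, and say nothing of a screen for YOUNG and OLD. CON-OLD-iBP was the old control with iBP, a treatment whose name the labels do not spell out. The labels give no age in months for the knockout line, and no old control of that line without iBP was analysed here. Another 8 samples of the series, CUT&Tag libraries of a histone mark, were not analysed here. Whether replicates are different animals or cultures is not labelled, and the p-values here reflect no more than how far these samples spread, and that spread may be technical.

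Macrophages arise from haematopoietic precursors under the transcription factor PU.1 (gene Spi1) and depend on signals through the CSF1 receptor, whose ligand CSF1 is made by osteoblasts and other stromal cells. They carry complement, Fc and lectin receptors, many of which signal through adaptors with immunoreceptor tyrosine-based activation motifs (ITAM), and they degrade what they take up in lysosomes rich in lysozyme and cathepsins. In bone they line the surfaces on which osteoblasts work and share their precursors with osteoclasts, and cells plated from bone can include them.

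The libraries differed in ways that crossed the groups, and these differences touch every result here. Malat1, a nuclear RNA, made up 0.0296% to 0.0386% of the counts in YOUNG 1, YOUNG 2, OLD 1 and OLD 3 (called set 1), 0.0334% to 0.0435% in the first 2 libraries of CON-YOUNG and of CKO-YOUNG (set 2), and 0.0957% to 0.223% in the other 10 libraries (set 3). Sets 1 and 2 were parted by group label, the set 3 libraries by Malat1, after the data were seen. Set 1 expressed Xist (391 to 481 CPM, counts scaled to a library of 1e6) with 0 CPM of the Y-linked Ddx3y, whereas the libraries of sets 2 and 3 held 21.3 to 91.8 CPM of Ddx3y. OLD 1 and OLD 3 were nearly alike: their median squared difference over genes was 6.34 times counting noise, whereas other pairs within a group differed by 16.8 to 218 times. Total counts ran from 46.3 to 77.7 in units of 1e6. Kdm2b counts, summed over the whole gene, lay between 16.2 and 58.2 CPM in all 18 libraries and do not check the loss of 1 domain. Osteoblast genes were abundant, with Col1a1, the type I collagen chain of bone, at 2909.6 to 32712 CPM. Osteocalcin (Bglap, named for its role as the marker behind the Cre) was at 0.15, 0 and 9.89 CPM in CON-YOUNG and 0.152, 0 and 0.306 CPM in CKO-YOUNG, so this marker was at or near 0 in 5 of these 6 libraries.

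The 35 genes together took from 0.0189% of the counts (CKO-YOUNG 2) to 2.06% (YOUNG 1), a 109-fold range over 18 libraries labelled as osteoblasts. The summed share was 2.06%, 1.39% and 0.433% in YOUNG 1, 2 and 3 and 1.48%, 0.191% and 1.47% in OLD 1, 2 and 3. It was 0.0265%, 0.026% and 0.0638% in CON-YOUNG and 0.0233%, 0.0189% and 0.129% in CKO-YOUNG. CKO-OLD held 0.286%, 0.79% and 0.188% and CON-OLD-iBP 0.0656%, 0.0857% and 0.132%. The 4 libraries of set 1 were the highest of all, the 4 of set 2 the lowest, and the 10 of set 3 lay between them at 0.0638% to 0.790%, so no 2 sets overlapped. Group means were 1.29% ± 0.819 (SD, n = 3) in YOUNG, 1.04% ± 0.739 in OLD, 0.0388% ± 0.0217 in CON-YOUNG, 0.0569% ± 0.0621 in CKO-YOUNG, 0.421% ± 0.323 in CKO-OLD and 0.0946% ± 0.0343 in CON-OLD-iBP. Within a group the highest library held from 2.02 times (CON-OLD-iBP) to 7.72 times (OLD) the share of the lowest. Counting error was far smaller than this spread: the widest exact 95% binomial interval, in CKO-YOUNG 2, ran from 0.0185% to 0.0192%. Such intervals cover counting error only. In bulk RNA, fewer cells of a type and less RNA per cell cannot be told apart.

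**Figure D1:**
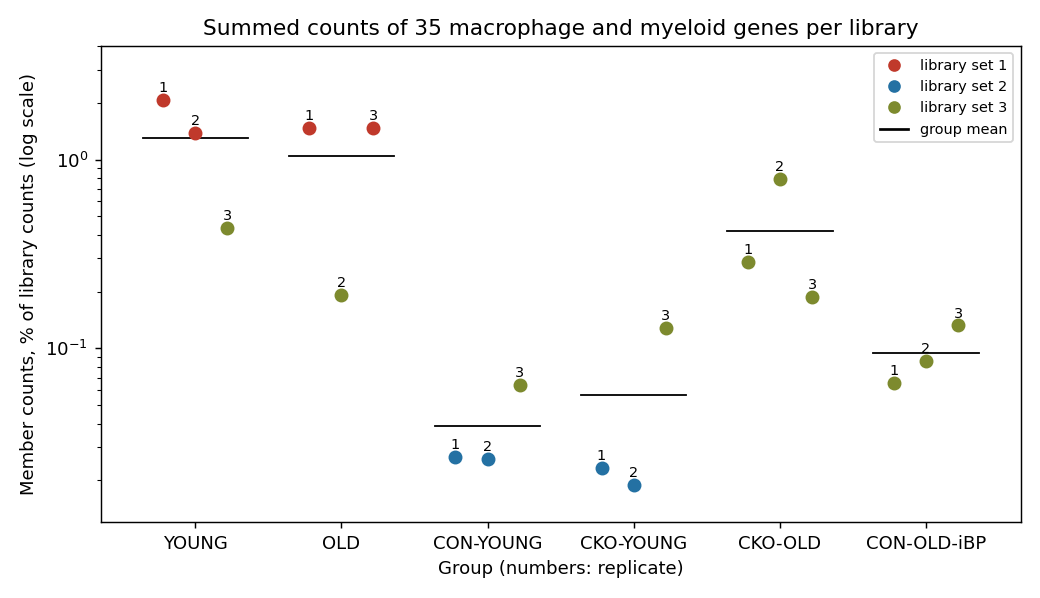
Summed counts of the 35 genes as a percent of each library's counts (vertical log axis) for the 6 groups, 1 point per library, numbered by replicate and coloured by library set, with a line at the group mean. The set 1 libraries sit at 1.39% to 2.06%, the set 2 libraries at 0.0189% to 0.0265%, and 4 groups hold libraries of 2 sets.

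Single members followed the sum closely. In 31 of the 35 genes all 4 set 1 libraries lay above all other 14, against 6.66% of all genes tested, and the exceptions were Clec4n, Cd300lf, Cd74 and Cybb. YOUNG 1 was the highest library for 28 members, and CKO-YOUNG 2 the lowest for 22. Members varied 32.0-fold to 1175-fold in CPM over the libraries (median 122-fold, 32 members with no zero). The make-up of the 35 genes varied far less: the percent of the member counts that 1 gene took differed by a median of 2.82-fold between its lowest and highest library. It stayed within 3-fold for 18 members, went past that for 14, and included a zero for 3 (Cd300lf, Ly86 and Ccr2). Lyz2 took from 30.0% in CKO-YOUNG 1 to 49.4% in CKO-OLD 1 of the member counts, Laptm5 from 2.86% in CKO-OLD 1 to 4.79% in CON-OLD-iBP 2, and Ptprc from 0.554% in CKO-OLD 1 to 1.1% in YOUNG 2. These genes kept nearly the same place from the lowest to the highest library.

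Some members departed from this fixed make-up. Cd14 took from 1.97% in CON-YOUNG 1 to 20.7% in CON-OLD-iBP 1 of the member counts and 7.31% to 20.7% in the CON-OLD-iBP libraries. Mrc1 ran from 0.237% in CKO-OLD 1 to 2.59% in CON-YOUNG 1, high in sets 1 and 2 and low in set 3. Cybb ran from 0.458% in CON-OLD-iBP 3 to 3.4% in CKO-YOUNG 1, highest in set 2. Cd74 ran from 0.0175% in YOUNG 1 to 0.855% in CON-YOUNG 2, a 48.7-fold range, and Aif1 from 0.0117% in CON-OLD-iBP 1 to 0.401% in CKO-YOUNG 1. As a description over the 18 libraries, which share their sets, the log2 level of a member correlated with that of the other members summed at a median Pearson r of 0.983, with 26 of 35 members over 0.95. The highest was Laptm5 (0.997) and the lowest were Cd74 (0.599), Ly86 (0.693), Aif1 (0.778) and Ccr2 (0.792).

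**Figure D2:**
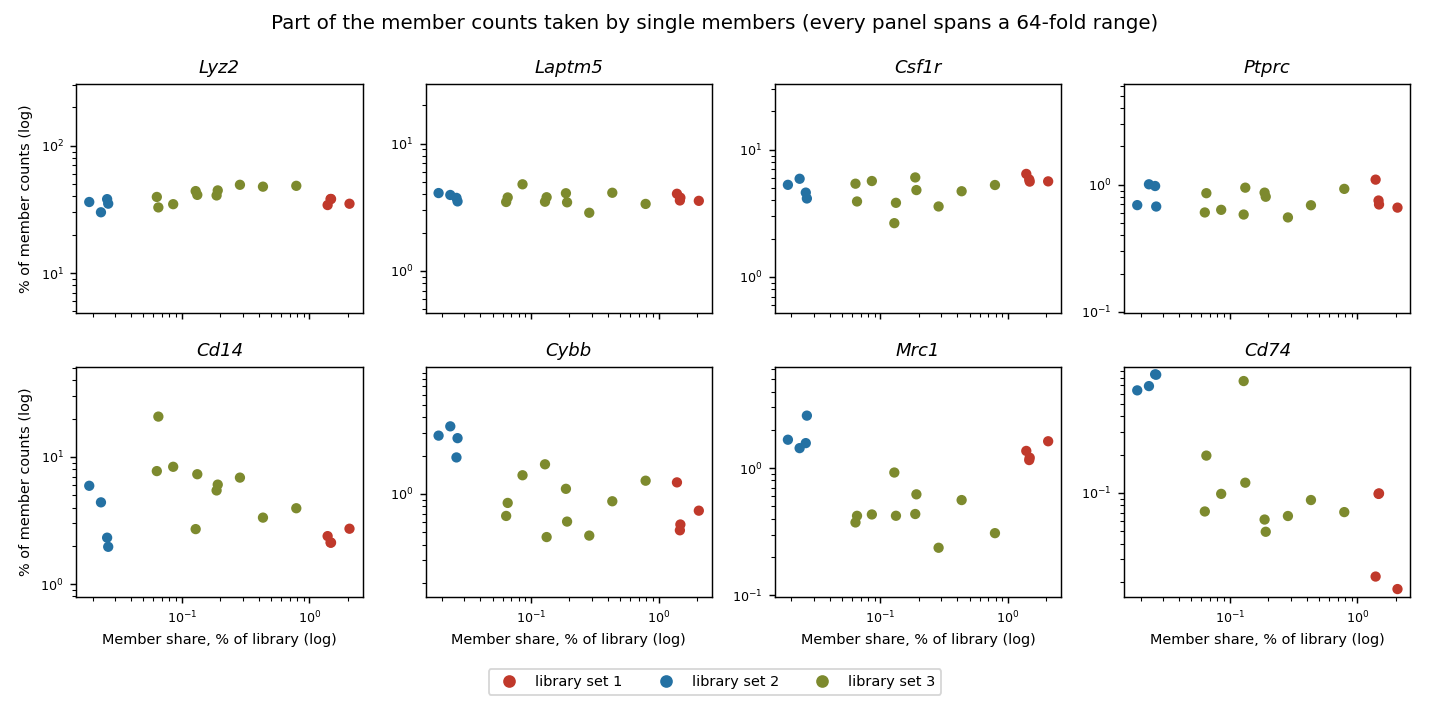
Percent of the member counts taken by 8 genes (vertical log axis, 64-fold in each panel) against the summed member share of the library (horizontal log axis), 1 point per library, coloured by library set. Lyz2, Laptm5, Csf1r and Ptprc lie nearly flat, while Cd14, Cybb, Mrc1 and Cd74 spread over 7.42-fold to 48.7-fold.

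The bases just before the members' transcription starts were read for the core motif bound by PU.1, GAGGAA on either strand (TTCCTC). RefSeq promoters of the GRCm38.p6 build were at hand for 25 of the 35 genes, in 29 windows of 250 bases before a start. The motif was in 16 of the 29 windows (55.2%, 15 genes), against 23.3% of all 32851 windows of that length. A longer form, GAGGAAGT or ACTTCCTC, which holds the core, was in 1 member window (C1qc, 3.45% of member windows) and in 2.44% of all. The TATAAA box, sought on both strands for contrast, was in 4 member windows (13.8%) and 12.4% of all. A match is a description of letters, not a site shown to be bound, and why most members moved together was not tested. The windows below are shown for 4 genes with the motif, among them Laptm5, the member most like the sum, and for Lyz2, the gene with the most member counts, which has no match in its window. Each is written 5′ to 3′ on the gene's strand and ends just before the start, with the motif in capitals: Laptm5 at chr4:130913066-130913315 (plus strand), Cd53 at chr3:106790150-106790399 (minus), Itgam at chr7:128062390-128062639 (plus), C1qc at chr4:136892915-136893164 (minus) and Lyz2 at chr10:117282273-117282522 (minus).
Laptm5: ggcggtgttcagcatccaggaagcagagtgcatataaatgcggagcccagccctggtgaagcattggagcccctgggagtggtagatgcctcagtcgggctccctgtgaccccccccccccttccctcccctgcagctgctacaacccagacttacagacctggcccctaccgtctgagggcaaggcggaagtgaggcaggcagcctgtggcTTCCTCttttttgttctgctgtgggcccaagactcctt
Cd53: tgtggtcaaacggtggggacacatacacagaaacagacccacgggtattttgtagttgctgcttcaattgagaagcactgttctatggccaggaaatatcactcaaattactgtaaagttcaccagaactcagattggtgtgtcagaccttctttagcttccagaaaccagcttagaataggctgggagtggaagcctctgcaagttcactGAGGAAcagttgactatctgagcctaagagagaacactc
Itgam: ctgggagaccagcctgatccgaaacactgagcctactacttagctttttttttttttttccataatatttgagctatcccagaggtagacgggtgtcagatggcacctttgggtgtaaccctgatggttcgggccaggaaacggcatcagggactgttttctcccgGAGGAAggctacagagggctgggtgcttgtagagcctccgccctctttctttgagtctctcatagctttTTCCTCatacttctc
C1qc: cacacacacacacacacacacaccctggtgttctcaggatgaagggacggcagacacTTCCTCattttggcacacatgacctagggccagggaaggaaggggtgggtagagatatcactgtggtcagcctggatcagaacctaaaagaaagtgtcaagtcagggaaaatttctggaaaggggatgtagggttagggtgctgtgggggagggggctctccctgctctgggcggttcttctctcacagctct
Lyz2: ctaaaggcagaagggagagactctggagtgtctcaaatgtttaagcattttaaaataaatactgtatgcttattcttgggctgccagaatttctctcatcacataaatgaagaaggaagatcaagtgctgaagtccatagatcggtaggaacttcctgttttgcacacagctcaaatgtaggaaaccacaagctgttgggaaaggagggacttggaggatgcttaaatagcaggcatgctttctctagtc
Laptm5 and Cd53 hold the motif near the start, its first base 38 and 39 bases before it. Itgam holds it on both strands, at 15 and 84 bases, and C1qc at 193 bases before the start.

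Pan-leukocyte genes were read first, since they mark leukocytes of many kinds but not osteoblasts. Ptprc encodes CD45, the membrane tyrosine phosphatase of nucleated blood cells. Ptprc stood at 135, 150.4 and 32.8 CPM in YOUNG 1, 2 and 3 and at 102, 14.7 and 108 CPM in OLD 1, 2 and 3. The CON-YOUNG libraries held 1.94, 2.78 and 3.8 CPM of Ptprc and the CKO-YOUNG libraries 2.47, 1.4 and 7.08 CPM. CKO-OLD 1, 2 and 3 held 14.7, 68.4 and 15.3 CPM and CON-OLD-iBP 1, 2 and 3 5.92, 5.58 and 11.8 CPM. The set 1 libraries stood highest, YOUNG 3 and OLD 2 far below them, and the set 2 libraries lowest. Laptm5, a lysosomal membrane protein of blood cells, ran from 8.25 CPM in CKO-YOUNG 2 to 723 CPM in YOUNG 1, with a median of 55.2 CPM. Lcp1, an actin-bundling protein of leukocytes, ran from 8.09 CPM in CKO-YOUNG 2 to 1032 CPM in YOUNG 1, with a median of 69.8 CPM. The actin-binding coronin Coro1a ran from 3.71 CPM in CON-YOUNG 2 to 269.9 CPM in YOUNG 1, with a median of 25.0 CPM. Cd53, a leukocyte tetraspanin, ran from 1.12 CPM in CON-YOUNG 2 to 172 CPM in YOUNG 1, with a median of 15.1 CPM. All of these genes ordered the libraries much as the other members did, with Spearman correlations of 0.971 to 0.990 over the 18 libraries. Together the 5 genes took 8.51% to 13.4% of the member counts.

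The lineage factor and the growth factor receptor moved as the leukocyte genes did. Spi1 encodes PU.1, the transcription factor that macrophage genes depend on. For Spi1 the libraries held 216, 133 and 39.9 CPM in YOUNG, 225, 21.0 and 229.8 CPM in OLD and 1.95, 2.02 and 10.1 CPM in CON-YOUNG, replicates 1 to 3 in that order. The Spi1 level was 2.79, 1.91 and 8.08 CPM in CKO-YOUNG, 29.6, 71.3 and 20.1 CPM in CKO-OLD and 6.08, 8.75 and 12.9 CPM in CON-OLD-iBP. YOUNG 1 and 2 and OLD 1 and 3 were again highest, the set 2 libraries lowest, and OLD 3 was the top library, as for no other member. Csf1r encodes the receptor of CSF1 that macrophages need to survive. Levels of Csf1r were 1148, 885 and 224 CPM in YOUNG, 815, 87.9 and 842 CPM in OLD and 95.2, 389 and 107 CPM in CKO-OLD. They were 27.0, 49.8 and 47.7 CPM in CON-OLD-iBP, 11.9, 13.1 and 34.0 CPM in CON-YOUNG and 14.5, 10.7 and 32.1 CPM in CKO-YOUNG. Its set 1 values lay above all others and its set 2 values below all others. CKO-OLD 2 was the highest library outside set 1 for both genes.

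Macrophage surface and activation genes followed. Adgre1 is an adhesion-class receptor by which mouse macrophages are identified. Adgre1 stood at 529, 421 and 92.1 CPM in YOUNG 1, 2 and 3 and at 357, 23.8 and 340.2 CPM in OLD 1, 2 and 3. The CON-YOUNG libraries held 9.42, 9.58 and 8.25 CPM of Adgre1 and the CKO-YOUNG libraries 8.08, 5.56 and 23.1 CPM. CKO-OLD 1, 2 and 3 held 33.0, 138 and 34.4 CPM and CON-OLD-iBP 1, 2 and 3 6.89, 14.3 and 12.1 CPM. The CON-YOUNG values fell within the range of CON-OLD-iBP, and CKO-YOUNG 3 lay above both groups. Cd68, a glycoprotein of macrophage lysosomes, had a like pattern. For Cd68 the libraries held 623, 403 and 101 CPM in YOUNG, 430.0, 43.3 and 440.3 CPM in OLD and 5.43, 6.89 and 16.8 CPM in CON-YOUNG, replicates 1 to 3 in that order. The Cd68 level was 7.12, 5.02 and 17.3 CPM in CKO-YOUNG, 53.0, 152 and 43.5 CPM in CKO-OLD and 19.2, 23.6 and 28.0 CPM in CON-OLD-iBP. The CON-OLD-iBP libraries were above all of CON-YOUNG here. Mpeg1, a pore-forming protein of the macrophage endosome, ran from 9.64 CPM in CKO-YOUNG 2 to 1016 CPM in YOUNG 1, with a median of 56.9 CPM. Aif1, a calcium-binding protein of macrophages and microglia, ran from 0.0808 CPM in CON-OLD-iBP 1 to 18.2 CPM in YOUNG 1, with a median of 0.977 CPM, and CKO-YOUNG 3 (2.49 CPM) was above all 3 CKO-OLD libraries.

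The integrin pair of myeloid cells was measured through both chains. Itgam encodes the CD11b chain. Levels of Itgam were 388, 289 and 69.5 CPM in YOUNG, 335, 27.8 and 333 CPM in OLD and 28.4, 150.3 and 32.5 CPM in CKO-OLD. They were 6.85, 15.8 and 14.9 CPM in CON-OLD-iBP, 5.98, 6.73 and 6.19 CPM in CON-YOUNG and 8.34, 4.95 and 20.1 CPM in CKO-YOUNG. The set 1 libraries lay far above the rest, and all of CON-YOUNG lay below the lowest CON-OLD-iBP library. Itgb2, its partner chain, ran from 4.31 CPM in CKO-YOUNG 2 to 355 CPM in YOUNG 1, with a median of 24.9 CPM, and both genes were highest in YOUNG 1 and lowest in CKO-YOUNG 2.

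Of the ITAM adaptors and the receptors grouped with them, Tyrobp encodes DAP12, the adaptor of TREM2. Tyrobp stood at 215, 137 and 47.4 CPM in YOUNG 1, 2 and 3 and at 190.1, 16.2 and 183 CPM in OLD 1, 2 and 3. The CON-YOUNG libraries held 2.32, 3.27 and 7.21 CPM of Tyrobp and the CKO-YOUNG libraries 2.00, 2.56 and 12.5 CPM. CKO-OLD 1, 2 and 3 held 24.4, 57.1 and 14.1 CPM and CON-OLD-iBP 1, 2 and 3 5.25, 5.6 and 19.6 CPM. CON-OLD-iBP 3 was far above the other 2 libraries of its group and also above OLD 2. Fcer1g, the common chain of Fc receptors, ran from 2.47 CPM in CKO-YOUNG 2 to 364 CPM in YOUNG 1, with a median of 26.9 CPM. Trem2, a lipid-sensing receptor, ran from 2.21 CPM in CKO-YOUNG 2 to 312 CPM in YOUNG 1, with a median of 27.1 CPM. The IgG receptors Fcgr1 and Fcgr3 ran from 0.618 CPM in CKO-YOUNG 2 to 92.3 CPM in YOUNG 1, with a median of 5.9 CPM, and from 1.11 CPM in CKO-YOUNG 2 to 215 CPM in YOUNG 1, with a median of 11.0 CPM. The C-type lectins Clec4d and Clec4n ran from 1.45 CPM in CON-YOUNG 1 to 197 CPM in YOUNG 1, with a median of 33.8 CPM, and from 0.265 CPM in CKO-YOUNG 2 to 13.5 CPM in YOUNG 3, with a median of 2.4 CPM. Clec4n was the one member with its top library, YOUNG 3, in set 3, and Cd300lf, a lipid-binding receptor of the CD300 family, was at 0 in CKO-YOUNG 2 and reached 14.3 CPM in YOUNG 2.

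The 3 chains of complement C1q, which macrophages secrete, had the same lowest and the same highest library. For C1qa the libraries held 755, 322 and 89.9 CPM in YOUNG, 379, 22.3 and 379 CPM in OLD and 7.88, 6.86 and 9.1 CPM in CON-YOUNG, replicates 1 to 3 in that order. The C1qa level was 3.47, 2.53 and 40.5 CPM in CKO-YOUNG, 49.6, 101 and 23.9 CPM in CKO-OLD and 4.18, 18.3 and 25.5 CPM in CON-OLD-iBP. YOUNG 1 was far above the other set 1 libraries, CKO-YOUNG 3 far above the rest of its group, and CON-OLD-iBP 1 below all of CON-YOUNG. C1qb ran from 5.79 CPM in CKO-YOUNG 2 to 1171 CPM in YOUNG 1, with a median of 52.2 CPM. C1qc ran from 3.18 CPM in CKO-YOUNG 2 to 802 CPM in YOUNG 1, with a median of 28.8 CPM. The 3 genes took 4.74% of the member counts in CON-OLD-iBP 1 and 13.4% in YOUNG 1, the 2 ends of their range, and 11.9% in CKO-YOUNG 3.

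Lysosomal genes held the largest part of the member counts. Lyz2, the lysozyme of macrophages and granulocytes, took 38.2% of them over all libraries. Lyz2 stood at 7129, 4689.9 and 2265 CPM in YOUNG 1, 2 and 3 and at 5534, 813 and 5500.0 CPM in OLD 1, 2 and 3. The CON-YOUNG libraries held 101, 108 and 249 CPM of Lyz2 and the CKO-YOUNG libraries 73.5, 72.9 and 534 CPM. CKO-OLD 1, 2 and 3 held 1312, 3568 and 719 CPM and CON-OLD-iBP 1, 2 and 3 226, 305 and 513 CPM. CKO-YOUNG 3 was far above CKO-YOUNG 1 and 2, and above all of CON-YOUNG and CON-OLD-iBP, and YOUNG 3 was well below YOUNG 1 and 2. Ctss, the cathepsin that cleaves the invariant chain of MHC class II, ran from 12.1 CPM in CKO-YOUNG 2 to 767 CPM in YOUNG 1, with a median of 73.7 CPM. Cd74, which encodes that invariant chain, was at 3.57, 3.02 and 4.17 CPM in YOUNG and 14.4, 0.902 and 14.1 CPM in OLD. CKO-YOUNG held 1.69, 1.29 and 9.18 CPM of it. Its 3 highest libraries were OLD 1, OLD 3 and CKO-YOUNG 3, which is not the order of the other members.

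The phagocyte oxidase was represented by its membrane subunit Cybb and its cytosolic subunit Ncf1. Cybb ran from 4.22 CPM in CON-YOUNG 3 to 169 CPM in YOUNG 2, with a median of 12.4 CPM, and Ncf1 ran from 1.91 CPM in CKO-YOUNG 2 to 269 CPM in YOUNG 1, with a median of 24.0 CPM. For Cybb, CKO-OLD 2 (93.6 CPM) was above OLD 1 and OLD 3 (83.4 and 74.6 CPM). The scavenger receptor Msr1 ran from 1.79 CPM in CKO-YOUNG 1 to 276 CPM in YOUNG 1, with a median of 15.8 CPM. The mannose receptor Mrc1 was at 175, 11.4 and 167 CPM in OLD and 6.29, 22.7 and 7.7 CPM in CKO-OLD. Each Mrc1 value in CKO-OLD 1 and 3 lay below all of OLD, while CKO-OLD 2 lay above OLD 2.

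Genes of lipopolysaccharide sensing differed in pattern. Cd14, the lipopolysaccharide co-receptor, was at 143, 73.4 and 91.2 CPM in CON-OLD-iBP and 307, 110.4 and 306 CPM in OLD. The levels in CKO-OLD were 183, 291 and 96.2 CPM and in CON-YOUNG 5.65, 6.58 and 48.6 CPM. CON-OLD-iBP 1 was thus above OLD 2. Ly86, which encodes the MD-1 partner of the B cell and macrophage protein CD180, was at 0 counts in all 3 CON-OLD-iBP libraries and in CON-YOUNG 3, and reached 16.9 CPM in YOUNG 1. Of the chemokine receptors, Cx3cr1 binds fractalkine. Levels of Cx3cr1 were 78.5, 62.5 and 4.36 CPM in YOUNG, 39.4, 2.44 and 36.7 CPM in OLD and 3.32, 24.8 and 4.16 CPM in CKO-OLD. They were 1.84, 2.11 and 0.73 CPM in CON-OLD-iBP, 0.0668, 0.368 and 2.1 CPM in CON-YOUNG and 0.186, 0.371 and 1.49 CPM in CKO-YOUNG. The set 1 libraries were highest, CKO-OLD 2 was next, and the set 2 libraries were lowest. Ccr2, the receptor of inflammatory monocytes, reached 4.22 CPM (YOUNG 2) and had no count in 9 libraries.

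**Figure D3:**
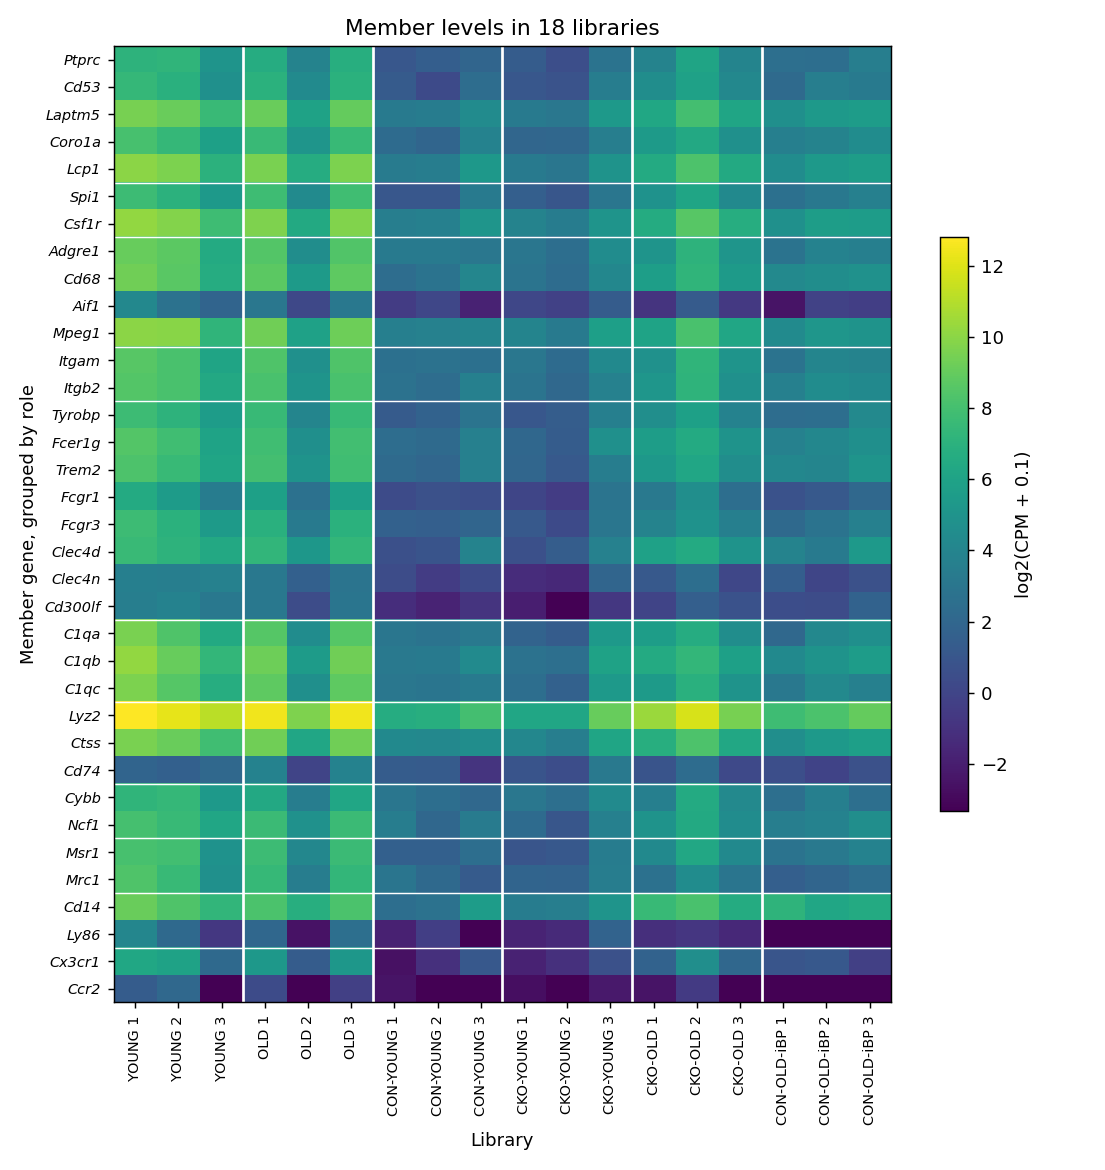
log2(CPM + 0.1) of the 35 members (rows, grouped by role, white lines between roles) in the 18 libraries (columns, grouped by study group), with brighter colours for higher levels. The columns of YOUNG 1, YOUNG 2, OLD 1 and OLD 3 are brightest in nearly all rows, and Ly86 and Ccr2 are dark in CON-OLD-iBP, where both had 0 counts.

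In CON-YOUNG against YOUNG, the 2 young groups without the Kdm2b deletion, from Ocncre Ai14 mice and from mice with no named transgene, 32 of 35 members fell and none rose by edgeR's quasi-likelihood test (adjusted p under 0.05 over 16566 genes, of which 3.83% were lower). The median member log2 fold change was -5.11, against -0.01 over all genes tested. Csf1r averaged 19.6 ± 12.4 CPM (SD, n = 3) in CON-YOUNG and 752 ± 476 CPM in YOUNG, a log2 fold change of -5.26 (SE 0.95, adjusted p = 0.0141). The smallest p-values were those of Cd68 (-5.28, SE 0.95), Csf1r, Laptm5 (-5.11, SE 0.93), Ptprc (-5.22, SE 0.95) and Mpeg1 (-5.70, SE 1.05), each with an edgeR adjusted p of 0.0141. The other named genes also fell, with a log2 fold change of -4.94 (SE 1.00) for Lyz2, -4.79 (SE 1.02) for Spi1 and -5.84 (SE 1.51) for Cx3cr1 and adjusted p up to 0.0372. Adgre1 (-5.26, SE 1.01), Itgam (-5.30, SE 1.01), Tyrobp (-4.97, SE 1.08) and C1qa (-5.61, SE 1.33) lay between. Cd74 (-1.02, adjusted p = 0.548), Ly86 (-4.63, 0.146) and Ccr2 (-6.20, 0.16) did not pass. In 33 members the groups did not overlap, against 13% of all genes.

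The groups of that comparison differ in library set: YOUNG 1 and 2 are of set 1 and CON-YOUNG 1 and 2 of set 2, and within set 3 only CON-YOUNG 3 and YOUNG 3 remain. With a term for set no member passed, nor any other gene (0%), and the members' median was -1.92. Sets 1 and 2 were parted by group label, so this term takes up much of the contrast itself. Few calls could be made with it, whatever the genes did. Within set 3 none passed (0.133% of all genes did), with a median of -3.01 and 34 of 35 below 0. Group and set can hardly be told apart here. No member, and no gene of the table, passed without YOUNG 1, without CON-YOUNG 1 or without CON-YOUNG 2. Without any one of the others 26 to 32 members passed, and the share of all genes in those fits is not given here. With the 2 groups fitted alone no member passed (smallest edgeR adjusted p 0.0771; 0.00665% of all genes), nor with the replicate number added to that fit as a block (smallest edgeR adjusted p 0.125; 0% of all genes).

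OLD and YOUNG were compared to ask what changes with age in cells with no named transgene, and no member passed. None had an unadjusted p under 0.05 in edgeR (3.34% of all genes did), and DESeq2 called 0 (0.249% of all genes). No gene of the whole table passed in edgeR (0%). The log2 fold change was -0.50 (SE 0.80, adjusted p = 1.00) for Ptprc, -0.37 (SE 0.79, adjusted p = 1.00) for Csf1r and -0.25 (SE 0.85, adjusted p = 1.00) for Lyz2 by edgeR. The 10 named genes lay between -0.89 and 0.29. Of the 35, 33 were below 0 with a median of -0.39, against a median of -0.03 over all genes. Clec4n and Cd300lf were lower in OLD with no overlap, where 5.63% of all genes were. Within set 1, 2 libraries against 2, the median was -0.31 and none passed (0.38% of all genes). Within set 3, where YOUNG 3 and OLD 2 stand alone, it was -1.35.

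In CKO-YOUNG against CON-YOUNG, the test of the Kdm2b domain at a young age, no member passed (0.127% of all genes did), none had an unadjusted p under 0.05 in edgeR (5.48% of all genes), and DESeq2 called 0 (1.43%). Ptprc averaged 3.65 ± 3.02 CPM (SD, n = 3) in CKO-YOUNG and 2.84 ± 0.935 CPM in CON-YOUNG. Its log2 fold change was 0.36 (SE 0.81, adjusted p = 1.00), that of Csf1r -0.04 (SE 0.79, adjusted p = 1.00) and that of Lyz2 0.57 (SE 0.85, adjusted p = 1.00). The named genes spread from -0.29 to 0.97, and 24 of 35 members were above 0 with a median of 0.43. The direction turned without CKO-YOUNG 3, when the median was -0.83. Within set 2, without replicate 3 of either group, the median was -0.35, 26 of 35 members were below 0 and none passed (0.459% of all genes). Within set 3, where CKO-YOUNG 3 and CON-YOUNG 3 stand alone, it was 1.08. Cd74 and Ly86 passed there as higher (with 3.39% of all genes), but this sets 1 library against 1, with the spread taken from the other groups and Ly86 at 0 counts in CON-YOUNG 3, and compares those libraries rather than the genotypes. CKO-YOUNG 3 also held Xist (372 CPM) beside Ddx3y (21.3 CPM), unlike the others of its group. Their part in the result was not tested.

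In CKO-OLD against OLD, the old knockout against old cells with no named transgene, no member passed in edgeR (0.00604% of all genes did). All 35 were below 0, with a median of -1.61 against -0.01 over all genes, 8 had an unadjusted p under 0.05 (4.32% of all genes were lower at that level), and DESeq2 called 1, Mrc1 (lower calls in 0.231% of all genes). Ptprc had a log2 fold change of -1.19 (SE 0.81, adjusted p = 0.734), Csf1r of -1.56 (SE 0.81, adjusted p = 0.64) and Lyz2 of -1.08 (SE 0.86, adjusted p = 0.782) by edgeR. The 10 named genes lay from -2.16 to -1.08. Groups overlapped in every member. OLD 2 was low, and for Cybb CKO-OLD 2 also lay above OLD 1 and OLD 3. All of CKO-OLD is in set 3, and OLD 1 and 3 are in set 1. Knockout, mouse line and set therefore cannot be told apart in this comparison. Against OLD 2 alone, within set 3, the direction turned: 34 of 35 members were above 0, with a median of 1.08, Ptprc 1.16, Csf1r 1.17 and Lyz2 1.20, and none passed (0.0543% of all genes).

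In CON-OLD-iBP against OLD all 35 members were below 0 again, and none passed in edgeR, where the smallest adjusted p was 0.0538 (0.0241% of all genes passed). CON-OLD-iBP is a treated control and lies wholly in set 3. OLD is untreated, with no named transgene, and OLD 1 and OLD 3 are of set 1. Treatment with iBP, mouse line and library set therefore cannot be told apart here. The median log2 fold change was -3.52 against 0.00 over all genes, and 33 members had an unadjusted p under 0.05, where 13.3% of all genes were lower at that level. DESeq2 called 32 members lower, with 7.61% of all genes lower. In 23 members the groups did not overlap, against 15.8% of genes. Csf1r averaged 41.5 ± 12.6 CPM (SD, n = 3) against 581 ± 428 CPM in OLD. By edgeR its log2 fold change was -3.81 (SE 0.88, adjusted p = 0.055). Adgre1 had -4.43 (SE 0.97), Itgam -4.21 (SE 0.96), Spi1 -4.10 (SE 0.99), Cd68 -3.69 (SE 0.88) and Ptprc -3.27 (SE 0.87). Tyrobp had -3.68 (SE 1.01), C1qa -4.02 (SE 1.23), Lyz2 -3.50 (SE 0.93) and Cx3cr1 -4.07 (SE 1.38), so the named genes lay from -4.43 to -3.27 with adjusted p of 0.0538 to 0.104. Ly86, with 0 counts in CON-OLD-iBP, was at least 185-fold lower, and Ccr2 at least 36.2-fold, taking 3 counts in the group as the floor. The median was the same with both at these bounds. The bounds pool the OLD libraries and rest on OLD 1 and OLD 3. In OLD 1, 2 and 3 Ly86 had 286, 4 and 385 counts and Ccr2 83, 0 and 49. They therefore do not hold against OLD 2, the set 3 library. Without OLD 2, 29 members passed as lower (5.17% of all genes), but OLD 1 and OLD 3, then the whole OLD group, are nearly alike. With these 2 averaged into 1 library beside OLD 2, no member passed (smallest edgeR adjusted p 0.218; 0% of all genes). Within set 3, with OLD 2 alone on one side, none passed (0.857%) and the median was -0.79.

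CON-OLD-iBP and CKO-OLD lie wholly in set 3, so here the groups do not differ in library set. No member passed in the fit over all groups (smallest edgeR adjusted p 0.134, 0.567% of all genes called lower), 18 had an unadjusted p under 0.05 (10.1% lower among all genes), and DESeq2 called 8 lower (of all genes 4.19%): Csf1r, Adgre1, Mpeg1, Itgam, Lyz2, Ctss, Cybb and Ly86. Of the 35, 34 were below 0 with a median of -1.86, against -0.01 over all genes, the exception being Cd300lf at 0.14. The groups did not overlap in 23 members, where 16% of genes were lower with no overlap. Lyz2 averaged 348 ± 148 CPM (SD, n = 3) against 1866 ± 1503 CPM, a log2 fold change of -2.42 (SE 0.89, adjusted p = 0.163). Adgre1 had -2.62 (SE 0.89, adjusted p = 0.134), Itgam -2.49 (SE 0.89), Csf1r -2.25 (SE 0.83), Ptprc -2.08 (SE 0.83) and Spi1 -2.13 (SE 0.91). Cd68 had -1.81 (SE 0.82), Cx3cr1 -2.78 (SE 1.31), C1qa -1.86 (SE 1.13) and Tyrobp -1.65 (SE 0.93). Ly86 was at least 20.3-fold and Ccr2 at least 12.2-fold lower, by the same floor on pooled counts. Ccr2 had 4, 32 and 0 counts in CKO-OLD 1, 2 and 3, so its bound rests mostly on CKO-OLD 2. With the spread estimated within sets, 23 members passed as lower, where 9.94% of genes did, and with a set term 20 did (6.48%). Both fits take part of their spread from pairs within sets 1 and 2. Member shares in these pairs differed by 1.01-fold (OLD 1 and OLD 3) to 1.48-fold (YOUNG 1 and YOUNG 2), against 4.21-fold within CKO-OLD. That spread may thus be too small for this comparison, and its part in the calls was not tested. iBP and genotype cannot be told apart here, since one group is a treated control and the other an untreated knockout.

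**Figure D4:**
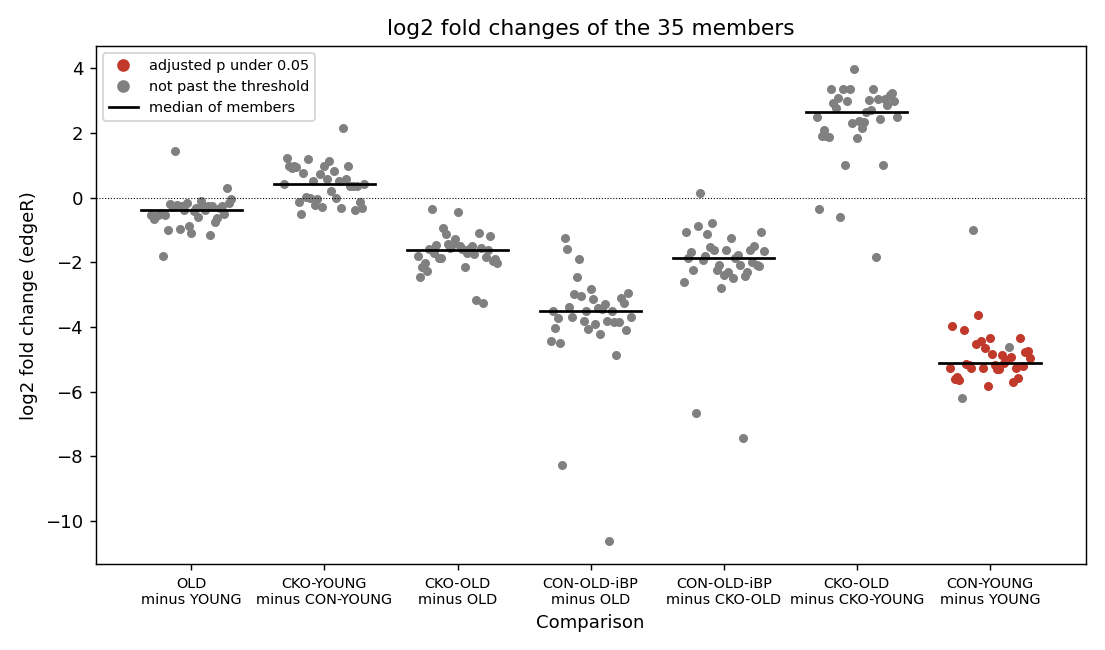
edgeR log2 fold changes of the 35 members (vertical axis, 1 point per gene) in 7 comparisons (horizontal axis), with red for an adjusted p under 0.05 and a line at the members' median. Red points stand in CON-YOUNG against YOUNG alone (32 of 35), and the medians run from -5.11 there to 2.66 in CKO-OLD against CKO-YOUNG. The lowest points in the CON-OLD-iBP comparisons are Ly86 and Ccr2, whose fitted values are not bounds.

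Within the knockout, CKO-OLD against CKO-YOUNG, no member passed in edgeR (smallest adjusted p 0.0591, Cd14; 0.7% of all genes passed). Of the 35, 32 were above 0, with a median of 2.66 against 0.00 over all genes, and 26 had an unadjusted p under 0.05 (11.4% of all genes were higher at that level). DESeq2 called 24 higher (6.96% of all genes). In 24 members the groups did not overlap, against 16.3% of genes. Csf1r averaged 197 ± 166 CPM (SD, n = 3) in CKO-OLD and 19.1 ± 11.4 CPM in CKO-YOUNG, and its edgeR log2 fold change was 3.37 (SE 0.87, adjusted p = 0.0626). Ptprc had 3.17 (SE 0.87), Spi1 3.24 (SE 0.95), Cd68 3.08 (SE 0.86), Lyz2 3.04 (SE 0.91) and Cx3cr1 3.96 (SE 1.39). Adgre1 had 2.48 (SE 0.89), Itgam 2.66 (SE 0.89), Tyrobp 2.48 (SE 0.96) and C1qa 1.91 (SE 1.13), with adjusted p over the 10 genes of 0.0626 to 0.304. Aif1, Cd74 and Ly86 were below 0. Without CKO-YOUNG 3, 28 members passed as higher (7.66% of all genes). That leaves CKO-YOUNG 1 and 2, both of set 2, against CKO-OLD, all of set 3, so age and set cannot be told apart there. With a set term no member passed, and the median was 1.97. Within set 3, against CKO-YOUNG 3 alone, the median was 1.59, Cd14 passed as higher and Ly86 as lower (5.38% of all genes passed). That lone library, the one with Xist, is assumed to vary as the other groups do, and its 3.44 CPM of Ly86 stood against 0.203 and 0.283 CPM in the rest of its group.

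The difference between the age comparison in the knockout and that between OLD and YOUNG was tested as an interaction. No member passed (smallest edgeR adjusted p 0.320, 0% of all genes), though 24 had an unadjusted p under 0.05 (6.94% of all genes were higher at that level) and 33 were above 0, with a median of 3.01. DESeq2 called 3 higher (Ptprc, Csf1r and Cd14, with 1.28% of all genes). The edgeR interaction was 3.67 (SE 1.16, adjusted p = 0.326) for Ptprc, 3.74 (SE 1.15, adjusted p = 0.326) for Csf1r and 3.29 (SE 1.23, adjusted p = 0.342) for Lyz2, and the 10 named genes lay from 2.49 to 4.85. YOUNG and OLD lie mostly in set 1, CKO-YOUNG mostly in set 2 and CKO-OLD wholly in set 3. The knockout groups also differ from YOUNG and OLD in mouse line. Knockout, line and set therefore cannot be told apart in this interaction. With a set term no member passed, and the median was 2.57. Within set 3, where YOUNG 3, OLD 2 and CKO-YOUNG 3 each stand alone, it was 2.89. OLD, YOUNG, CKO-OLD and CKO-YOUNG libraries also enter other comparisons here, so the comparisons share samples and are not independent of one another.

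Other genes of the same pathways, from lists of the macrophage programme, were read in CON-YOUNG against YOUNG, the comparison in which members passed. Lower calls were made there in 3.83% of all genes, and no gene passed with a set term, which takes up much of that contrast. Of 31 tested surface and scavenger receptors 17 fell and none rose. Among them Sirpa, the inhibitory receptor for CD47, held 824, 685 and 143 CPM in YOUNG and 72.4, 55.2 and 54.9 CPM in CON-YOUNG, and Lilrb4a, an inhibitory immunoglobulin-like receptor, 442, 311 and 89.8 and 3.09, 2.21 and 21.7 CPM. For both genes the groups did not overlap. Of the 21 signalling proteins downstream of ITAM adaptors 15 fell, with Nckap1l, a leukocyte actin regulator, changing by -4.50 (SE 0.86, edgeR adjusted p = 0.0141). All 4 other subunits of the phagocyte oxidase fell, with log2 fold changes of -2.39 (SE 0.43) for Cyba and -4.66 (SE 1.06) for Rac2. Of 11 Toll-like receptors and partners 7 fell. Tlr4, the lipopolysaccharide receptor, had a log2 fold change of -1.06 (SE 0.23), and the adaptor Myd88 did not pass (0.29). Of 11 further transcription factors 4 fell, and Runx1 and Cebpa, those of highest mean CPM, did not pass (0.67 and 0.60).

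Of the 7 listed ligands of these receptors, 1 passed in CON-YOUNG against YOUNG, where 5 were below 0 with a median of -1.88, and none passed in the other comparisons. Csf1, the ligand with the highest counts, did not take the order of the members. Csf1 was at 1116, 1443 and 1456 CPM in YOUNG, 1991, 2215 and 1978 CPM in OLD and 1653, 1731 and 1296 CPM in CON-YOUNG. It was 1528, 1772 and 638 CPM in CKO-YOUNG, 1577, 1542 and 1350.2 CPM in CKO-OLD and 1486, 2860.2 and 1168 CPM in CON-OLD-iBP. Its lowest and highest libraries were thus CKO-YOUNG 3 and CON-OLD-iBP 2, and it passed in none of the comparisons by edgeR (0.22 in CON-YOUNG against YOUNG, adjusted p 0.741). Il34, the other ligand of CSF1R, ran from 3.26 CPM in CKO-YOUNG 1 to 53.3 CPM in CON-OLD-iBP 2 and passed in none. Ccl2, the chemokine that CCR2 binds, was the 1 that fell in CON-YOUNG against YOUNG (-3.39, SE 0.66, edgeR adjusted p = 0.0142), with 406, 197 and 55.0 CPM in YOUNG and 11.3, 11.7 and 39.9 CPM in CON-YOUNG.

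Markers of other blood cells were read in the same libraries. T and NK cell markers summed to 0.321 to 2.28 CPM, B cell markers to 0 to 1.07 CPM and erythroid markers to 0.0606 to 1.59 CPM over all 18 libraries, so these cell types' markers were at or near 0 where the members were high. MHC class II genes summed to 14.4 to 57.8 CPM, and none of the 6 passed in CON-YOUNG against YOUNG. Neutrophil markers were highest in YOUNG 3 (278 CPM, of which Lcn2 made up 269.6 CPM) and CON-OLD-iBP 1 (217 CPM), against 4.01 to 14.2 CPM in the 4 set 1 libraries, where the members were highest. Osteoblast markers summed to 12688 to 60002 CPM, lowest in CON-OLD-iBP 3. Megakaryocyte markers reached 89.0 CPM in YOUNG and 4.66 to 11.5 CPM in CON-YOUNG, with Pf4 the 1 of 4 that fell there. Endothelial markers summed to 8.30 to 15.4 CPM in set 1 and 1.07 to 8.70 CPM elsewhere, and 1 of 5 fell in CON-YOUNG against YOUNG. Fibroblast and stromal markers summed to 4792 to 9615 CPM in set 2, 2119 to 4001 CPM in set 1 and 772 to 11221 CPM in set 3. The part of these cell types in the results above was not tested.

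**Figure D5:**
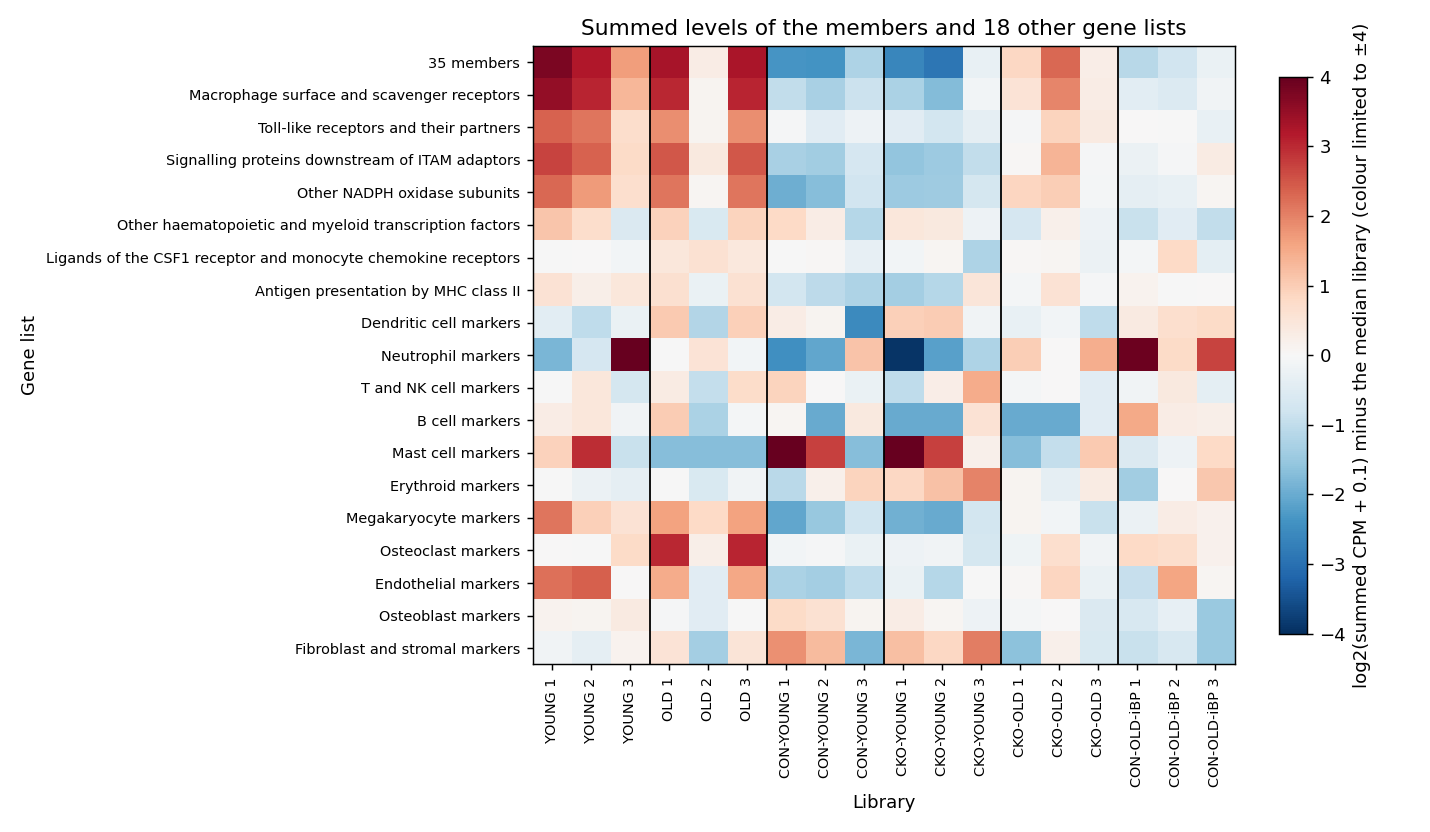
Summed level of the members and of 18 other gene lists (rows) in the 18 libraries (columns), as log2(summed CPM + 0.1) minus the median library, red above and blue below, colour limited to 4. The 4 rows under the members (surface receptors, Toll-like receptors, ITAM signalling and oxidase subunits) follow the top row. So do those of megakaryocyte, MHC class II and endothelial genes (Pearson r 0.902, 0.842 and 0.839 over 18 libraries that share their sets). The ligand, T and NK cell, fibroblast and osteoblast rows do not. Nor do those of other haematopoietic and myeloid transcription factors (0.323), neutrophil markers (0.236) and dendritic cell markers (-0.116).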

How the data were processed

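RNA libraries of 6 groups (3 each, by the submitters' titles) were analysed from the raw read counts per gene symbol that the authors deposited; these are whole numbers with no normalization. Per the submitters' processing notes, FastQC, Trim Galore, HISAT2 and the mm39 build were used. What counted the reads, on which annotation and with which strand setting, is not given in the sources used here, so overlapping genes and near-identical copies could not be told apart. The members and gene lists were chosen with earlier results of these data known.

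Genes were kept by filterByExpr (minimum count 10, minimum total 15; 16566 kept), with TMM scaling, and edgeR's quasi-likelihood test was used (F test, robust, 6 group coefficients, 12 residual degrees of freedom, two-sided, Benjamini-Hochberg over all genes, threshold 0.05). The depth of 46.3 to 77.7 (in 1e6 counts) makes counting error small beside the spread of libraries. CPM were computed with TMM library sizes. Shares used raw totals, with exact binomial intervals. Versions were edgeR 4.0.16, DESeq2 1.42.0 and limma 3.58.1 under R 4.3.3, with matplotlib 3.10.9 under Python 3.11.15. The fit was also run on simulated counts, for CON-YOUNG against YOUNG only. Those counts held no library sets and no nearly alike libraries, so that run does not speak to either.

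By rule, values in every library are given for Ptprc, Spi1, Csf1r, Adgre1, Cd68, Tyrobp, C1qa, Lyz2, Itgam and Cx3cr1 and statistics for called members (the 5 of smallest p where over 10 passed). Of other lists the 2 tested genes of highest mean CPM may be named, with Csf1 and Il34. Bglap, Pf4, Nfatc1, Itgb3, Tnfrsf11a and further member values singled out in the text were chosen after they were seen. Alternatives were size factors (RLE), no filter, DESeq2, the 2 groups alone, a replicate block, leaving out each library and, added after the data were seen, library sets (Malat1 above or below 0.05%) and OLD 1 and OLD 3 averaged. Deviations of same-numbered libraries gave correlations of 0.146, 0.245 and 0.310 between CON-YOUNG and YOUNG. Between CKO-YOUNG and its control they were 0.193, 0.237 and 0.305. Replicate 3 is the set 3 library in all of these groups, so shared set and pairing cannot be told apart. Between OLD and YOUNG, whose set 3 libraries bear different numbers, the correlations were 0.313, -0.217 and -0.311. Whether the numbers, from the titles, pair libraries is not labelled. Promoters are from RefSeq (GRCm38.p6), matched by symbol for 25 of 35 members.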

Additional observations from a re-analysis of the deposited data

How the results depend on the processing

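Under size factors in place of TMM the count of members called was the same in each comparison, and 30 passed in CON-YOUNG against YOUNG with no filter. DESeq2 called 1 member in CKO-OLD against OLD, 32 in CON-OLD-iBP against OLD, 8 in CON-OLD-iBP against CKO-OLD, 24 in CKO-OLD against CKO-YOUNG and 3 in the interaction, where edgeR called 0. With the 2 groups alone 3 passed in CKO-OLD against CKO-YOUNG and 0 in CON-YOUNG against YOUNG. Adding the replicate block to the 2 groups alone gave 3 in CON-OLD-iBP against CKO-OLD, 0 in CKO-OLD against CKO-YOUNG and still 0 in CON-YOUNG against YOUNG. The other counts stayed at 0, and libraries of 1 block may share only a number. No share of all genes is given beside the 30 calls with no filter. The same holds for the 3 calls with the 2 groups alone and the 3 with the block. These counts do not single out the members. Leaving out 1 library gave 0 to 32 called in CON-YOUNG against YOUNG, 0 to 29 in CON-OLD-iBP against OLD, 0 to 28 in CKO-OLD against CKO-YOUNG and 0 in the others. A set term gave 20 in CON-OLD-iBP against CKO-OLD and 0 in CON-YOUNG against YOUNG. Within set 3, 23 passed in CON-OLD-iBP against CKO-OLD, 2 in CKO-YOUNG against CON-YOUNG, 2 in CKO-OLD against CKO-YOUNG and 0 in CON-YOUNG against YOUNG. With OLD 1 and OLD 3 averaged no count changed. Leaving out 1 library, the log2 fold change in OLD against YOUNG ran from -0.80 to 0.14 for Csf1r and -0.57 to 0.23 for Lyz2, and in CKO-YOUNG against CON-YOUNG from -0.55 to 0.77 for Ptprc, -0.64 to 0.61 for Csf1r and -1.06 to 1.12 for Lyz2. Within set 2 the last 3 values were -0.28, 0.0115 and -0.51. In CKO-OLD against OLD they turned to 0.90, 0.77 and 0.66 with a set term and to 1.16, 1.17 and 1.20 within set 3. The causes were not tested. Without the 3 members with the most counts the mean share in CON-OLD-iBP was 0.0513% instead of 0.0946%. Of the other values of single genes under an alternative, 560 kept their side, 62 newly passed and 73 no longer passed.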

Other observations

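Outside the 35 genes, those whose log2 level followed the members' summed share most closely over the 18 libraries were, among 12619 genes with a mean of at least 1 CPM, Alox5ap (Pearson r 0.996), Vav1 (0.995), Susd3, Ptpn6, Cd300ld, Adam8, Clec5a, P2ry6, Rac2, Dock2, Hcls1, Arl11, Cd52, Lrrc25 and Selplg (0.985). These r describe libraries that share their sets and carry no test. Alox5ap, which presents arachidonic acid to the enzyme that starts leukotriene synthesis, ran from 1.91 to 286 CPM, and Adam8, a membrane protease of leukocytes, from 9.97 to 1334 CPM. Ptpn6 is the SHP-1 phosphatase that inhibitory receptors recruit. Of these 15 genes 5 stand in the lists of related genes used here, as do 25 of the 100 most similar.

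Osteoclast markers, of cells that share their precursors with macrophages, did not keep step with the members as a sum (Pearson r 0.529 over the 18 libraries). They summed to 2293 and 2349.8 CPM in OLD 1 and OLD 3, against 288 and 282 CPM in YOUNG 1 and YOUNG 2, though the members took 1.39% to 2.06% of the counts in each of the 4. The protease gene Mmp9 was at 747 and 763 CPM in OLD 1 and OLD 3, 5.01 CPM in OLD 2 and 8.42, 6.44 and 1.26 CPM in YOUNG, and Ctsk, the collagen-degrading cathepsin of osteoclasts, at 659, 201 and 666 CPM in OLD and 148, 143 and 218 CPM in YOUNG. OLD 1 and OLD 3 are the 2 libraries that were nearly alike. In OLD against YOUNG 9 of the 11 osteoclast markers were above 0 and none passed in edgeR. Nfatc1 (log2 fold change -0.33) and Itgb3 (-0.05) were below 0, and Tnfrsf11a was at 0.21. Tnfrsf11a followed the members' share (Pearson r 0.974), unlike the sum.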
